A study of Mus musculus with 2 samples.

Results

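The 39 Hox genes of the mouse were followed in endothelial cells (ECs) and other cells of a library prepared from newborn heart and liver. They are all features among the 21951 gene features whose symbol is Hoxa, Hoxb, Hoxc or Hoxd followed by digits only, 11 in the HoxA cluster, 10 in HoxB, 9 in HoxC and 9 in HoxD. The data were a single droplet library of 2755147 barcodes, in which each transcript copy is counted by a unique molecular identifier (UMI). The pooled cells came from heart and liver of 3 genotypes, control, iSuRe-Cre and iSuRe-HadCre, and each of the 6 groups carried its own antibody hashtag. All mice were C57BL/6, were given 40 mg/kg of 4-hydroxytamoxifen at postnatal day 3 and were dissected 3 days later (age P6-P7). The iSuRe groups carried Cdh5-CreERT2, a tamoxifen-inducible Cre driven by an endothelial promoter, and either the iSuRe-Cre or the iSuRe-HadCre allele, which couple Cre to the MbTomato reporter; the control's alleles, and any floxed gene in the iSuRe groups, are not given in the labels. The sort was for cells positive for CD31 and MbTomato, and the labels also name the absence of Tomato as a criterion. The number of pups per group is not given in the sources used here.

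Hox genes encode homeodomain transcription factors that give cells of the trunk and limbs an address along the body axis. Within each cluster the genes lie in the order in which they act from neck to tail, from paralogue group 1 at the anterior end to group 13 at the posterior end, and cells of the adult body retain much of the code of the place they formed in. Most of the head forms without Hox expression, whereas limb and genital tissue use the posterior genes of HoxA and HoxD in a later phase. Hox proteins bind DNA together with the cofactors of the Pbx and Meis families.

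On build GRCm38 the HoxA members lie on the minus strand of chr6:52155367-52260880, HoxB on chr11:96194316-96368254, HoxC on chr15:102921131-103036856 and HoxD on chr2:74668225-74765142. By paralogue number, 8 members belong to groups 1 to 3, 15 to groups 4 to 8 and 16 to groups 9 to 13. In the annotation, 4 members share exon bases on the same strand with another member, namely Hoxd3 with Hoxd4 and Hoxc5 with Hoxc10, and their split of UMIs is uncertain. The other RNAs of the clusters named Hotair, Hottip, Hotairm1 and Halr1 are not listed among the features.

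The promoters of 4 members on which the results turn are printed from RefSeq on GRCm38.p6: Hoxa5 and Hoxb4 lead in ECs, and Hoxa10 and Hoxd11 stand out in cells gated by collagen genes. Each run is the 250 bases before an annotated start that hold no annotated exon, 5′ to 3′ on the strand of the gene, at chr6:52204588-52204837 (minus) for Hoxa5, chr11:96318017-96318266 (plus) for Hoxb4, chr6:52234940-52235189 (minus) for Hoxa10 and chr2:74682073-74682322 (plus) for Hoxd11. Capitals mark matches, on either strand, to the letters TATAAA (bound by the TATA-binding protein), CCAAT (bound by NF-Y), GGGCGG (bound by Sp factors), TGATNNAT (a site of Pbx with Hox) and TTTATG (a site of Cdx).
Hoxa5: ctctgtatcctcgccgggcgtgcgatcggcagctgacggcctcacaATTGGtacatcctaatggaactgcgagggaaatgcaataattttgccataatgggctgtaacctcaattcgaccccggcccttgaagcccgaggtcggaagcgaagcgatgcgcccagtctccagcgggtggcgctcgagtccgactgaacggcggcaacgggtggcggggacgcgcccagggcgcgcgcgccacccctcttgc
Hoxb4: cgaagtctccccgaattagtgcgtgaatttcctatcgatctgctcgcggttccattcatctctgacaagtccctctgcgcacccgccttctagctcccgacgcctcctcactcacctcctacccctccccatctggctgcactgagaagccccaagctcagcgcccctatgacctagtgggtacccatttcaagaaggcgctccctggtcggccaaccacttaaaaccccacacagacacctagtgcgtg
Hoxa10: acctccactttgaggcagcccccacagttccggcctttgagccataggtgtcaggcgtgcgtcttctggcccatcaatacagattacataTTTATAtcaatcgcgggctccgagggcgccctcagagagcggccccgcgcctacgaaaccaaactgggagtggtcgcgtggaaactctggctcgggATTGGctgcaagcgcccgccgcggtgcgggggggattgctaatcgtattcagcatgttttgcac
Hoxd11: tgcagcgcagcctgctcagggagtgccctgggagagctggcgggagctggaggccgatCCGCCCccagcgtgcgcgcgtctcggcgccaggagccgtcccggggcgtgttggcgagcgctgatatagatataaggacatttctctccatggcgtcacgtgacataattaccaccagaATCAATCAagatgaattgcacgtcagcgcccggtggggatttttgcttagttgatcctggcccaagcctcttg
The Hoxa5 run holds CCAAT, the Hoxa10 run TATAAA and CCAAT, the Hoxd11 run GGGCGG and TGATNNAT, all on the opposite strand, and the Hoxb4 run holds none of these letters. Of 24 promoter entries for 22 members, 14 (58.3%) hold CCAAT, against 33.8% of all 32851 promoters of the same length. GGGCGG is in 10 (41.7% against 32.7%), TTTATG in 5 (20.8% against 10.8%), and TATAAA and TGATNNAT in 4 each (16.7% against 12.4% and 7.68%). Matches of different motifs were counted separately even where they share bases. These counts describe letters in a window, and no binding was measured.

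After filters on depth and on mitochondrial and haemoglobin transcripts, 14348 barcodes remained. ECs were the cells with Cdh5 above 0.9 on a natural log scale, 3083 with 1 hashtag and 2835 with none, called untagged here, which belong to no group. A further 5 populations were gated on at least 5 UMIs of Krt5, Prph, Col2a1, Myh11 or Col3a1 at low Cdh5, from any tissue tag or none. Median depth ran from 3863 UMIs per cell in untagged ECs to 23374.5 in Krt5-gated cells. The summed level of the 5 endothelial markers (Cdh5, Pecam1, Kdr, Tek and Emcn) ran from 2115 to 3365 UMIs per 1000000 UMIs (CPM) in the 6 tagged groups and from 32.8 to 67.3 CPM in the gated cells. Col3a1, a fibroblast collagen, was nevertheless at 5 UMIs or more in 1.74% to 6.92% of the cells of the 7 EC populations. Between 52.9% and 77.1% of each gated population carried no hashtag, so their tissue of origin is not known, and 158 of the 372 Col2a1-gated and 36 of the 43 Myh11-gated cells also passed another gate.

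Each group is 1 sample of 1 library, so no test between groups was possible and no p-value is given. Intervals are exact 95% intervals, Poisson for levels, binomial for shares of cells and conditional for ratios, and cover counting error only. Because Hox UMIs gather in few cells, these intervals are narrower than the true uncertainty. A UMI stands for 1 captured transcript end and is not divided by gene length, and the order of members within a population also carries how well each end is captured.

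Liver ECs held more Hox RNA than heart ECs, and the members that lead were the same kind of anterior and middle genes in both organs. Summed over the 39 members, the level was 136 CPM (95% interval 127 to 146) in control heart, 107 CPM (99.6 to 114) in iSuRe-Cre heart and 180 CPM (168 to 193) in the heart of iSuRe-HadCre pups. The liver values were 322 CPM (293 to 354) in control, 228 CPM (217 to 239) in iSuRe-Cre and 246 CPM (223 to 272) in iSuRe-HadCre ECs. Each of the 3 liver values lay above each of the 3 heart values. With the genotypes put together, 1371 liver ECs were at 243 CPM and 1712 heart ECs at 133 CPM, a ratio of 1.82 (1.72 to 1.92). The ratio stayed between 1.67 and 2.07 under every alternative that gave a value. Among these, subtracting RNA free in the droplets (2.03) did not treat the organs alike. Its share was estimated from hepatocyte genes in heart ECs (10.3%) and from cardiomyocyte genes in liver ECs (42.9%). The liver pool includes iSuRe-HadCre, where the estimate was 146.9%, which is not possible.

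**Figure D1:**
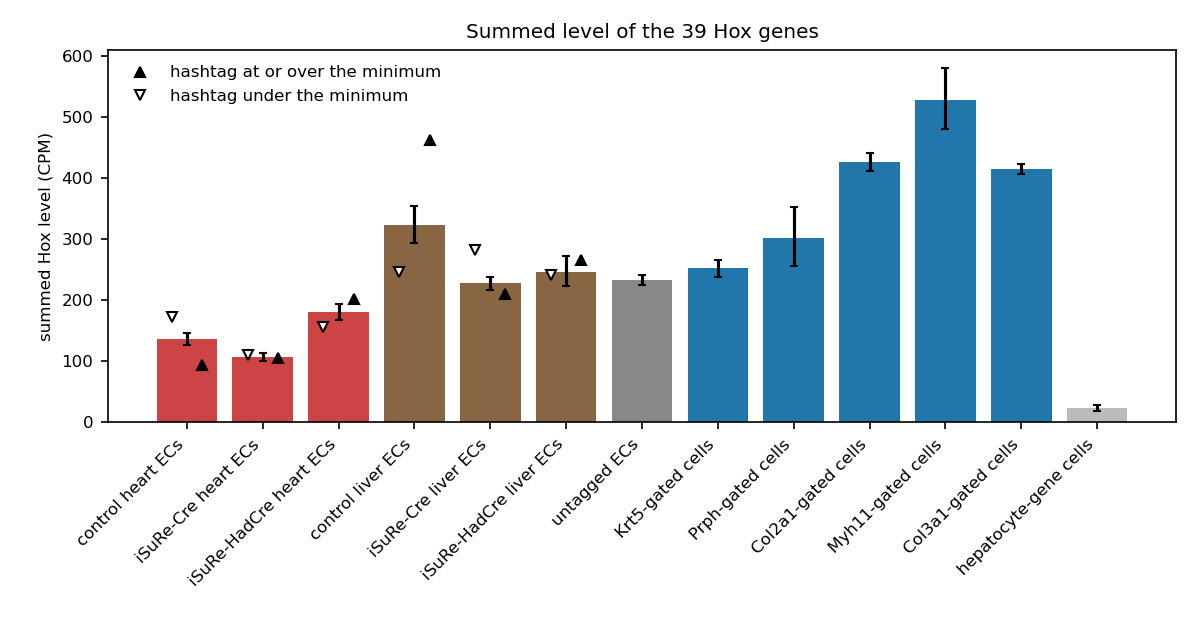
Summed level of the 39 Hox genes in CPM (bars, linear axis from 0) with exact 95% Poisson intervals (counting error only) in the 6 tagged EC groups, untagged ECs, 5 gated populations and cells rich in hepatocyte transcripts. Triangles give the same level in the cells of a group with strong (filled) or weak (open) hashtag counts. The 3 liver bars stand above the 3 heart bars, and hepatocyte-gene cells are the lowest at 22.5 CPM.

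A Hox UMI was seen in 42.4% of heart ECs (median depth 7255 UMIs) and in 64.1% of liver ECs (5677 UMIs). Thinned to 2000 UMIs per cell, with no cell shallower than that, the shares were 20.5% and 33.9%, in the same order at equal depth. In 176 cells rich in hepatocyte transcripts, taken as cells that should lack Hox genes (median depth 5548 UMIs), the share was 23.9% and 11.96% when thinned, at a summed level of 22.5 CPM (17.8 to 28.1). Barcodes of 10 to 100 UMIs, a measure of free RNA in the droplets, held Hox RNA at 237 CPM (207 to 271, 219 UMIs), above the level in heart ECs. This interval covers the sums of the pooled liver ECs (243 CPM) and of untagged ECs (233 CPM). Of the liver groups, only control (322 CPM, 293 to 354) lay above it. By member, 0 of 39 were above free RNA in the 3 heart groups and 1 to 2 in each liver group, where above means that the intervals do not touch. Against hepatocyte-gene cells the same count was 17 members in heart ECs and 23 in liver ECs. How far free RNA contributes to the level of single members was not tested.

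Hoxa5, a gene of the neck and upper thorax that is needed for lung development, was the highest member in all 7 EC populations. Its level was 17.7 CPM in control, 12.7 CPM in iSuRe-Cre and 22.5 CPM in iSuRe-HadCre heart ECs, and 50.3, 46.4 and 46.9 CPM in the same order in liver. The groups of the 2 organs do not overlap. The pooled ratio of liver to heart was 2.83 (2.45 to 3.28), with 497 UMIs in liver and 299 in heart. A Hoxa5 UMI was found in 22.8% of liver ECs, 10.05% of heart ECs and 2.84% of hepatocyte-gene cells, and when thinned in 7.70%, 3.58% and 1.43%. In free RNA Hoxa5 was at 19.5 CPM (11.6 to 30.8), which covers its level in heart ECs and lies below that in liver ECs.

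Anterior HoxB members followed in most groups. Hoxb4, known for its effect on blood stem cell expansion, was at 14.0, 12.1 and 15.2 CPM in control, iSuRe-Cre and iSuRe-HadCre heart ECs and at 22.9, 26.0 and 17.5 CPM in liver. Hoxb2, a gene of hindbrain patterning, was at 12.3, 10.6 and 11.95 CPM in heart and 28.1, 18.2 and 15.6 CPM in liver. For both genes the lowest liver group lay above the highest heart group. Hoxb3 was among the 5 highest members in iSuRe-Cre heart (6.35 CPM), iSuRe-HadCre heart (11.5 CPM), control liver (18.5 CPM) and iSuRe-Cre liver (15.0 CPM), and Hoxb5 in iSuRe-Cre heart (6.97 CPM) and liver (13.5 CPM). Of the middle HoxA genes, Hoxa7 was at 9.10 CPM in control heart, 10.8 CPM in iSuRe-HadCre heart, 20.7 CPM in control liver and 18.1 CPM in iSuRe-HadCre liver. Hoxa10, a gene of lumbar and uterine identity, reached 9.45 CPM in control heart and 13.8 CPM in iSuRe-HadCre liver.

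Of 39 members, 32 were higher in liver than in heart ECs, counted at any difference and any number of UMIs. The matching share of all genes was not taken, so this count is not read as a result. Among the 32 members with at least 20 UMIs over both organs, 8 were past 2-fold higher in liver, against 8.05% of all 14145 genes, and 0 were past 2-fold lower, against 3.49%. Among them were Hoxa2, Hoxa3, Hoxa4, Hoxa5, Hoxb7, Hoxd11 and Hoxd13. The adjoining Hoxa7 (ratio 1.38, 1.08 to 1.77) and Hoxa10 (1.41, 1.07 to 1.85) gave smaller ratios, and Hoxa11 stood at 0.889 (0.403 to 1.86). Beyond Hoxa5 the largest of these ratios with 50 or more UMIs in each organ were 2.96 (2.09 to 4.23) for Hoxb7 and 2.65 (1.85 to 3.83) for Hoxa4. The median log2 ratio was 0.63 over the members tested and 0.07 over all genes tested.

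**Figure D2:**
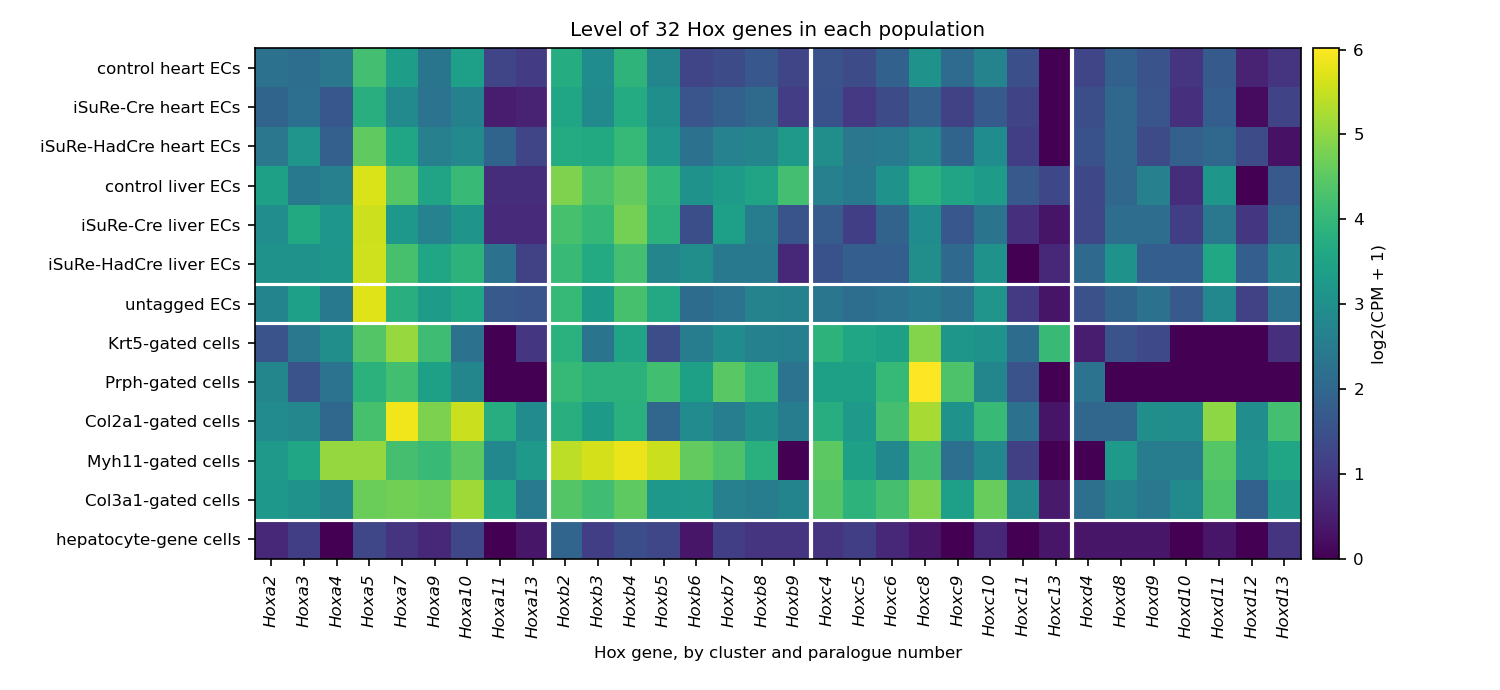
Level of the 32 Hox genes with at least 100 UMIs over the 12 populations, as log2(CPM + 1), by cluster and paralogue number (columns), in the 12 populations and in hepatocyte-gene cells (rows). Hoxa5 is the brightest cell of every EC row, Hoxc13 is bright only in Krt5-gated cells (15.8 CPM), and the right end of HoxD is bright in Col2a1-gated cells and dark in Krt5- and Prph-gated cells.

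Subsets of ECs, taken by at least 3 UMIs of a marker, differed in Hox level as well. Among cells with Vwf, a gene of large vessels, Hoxa5 was at 17.4 CPM in heart (63 cells), 83.0 CPM in liver (197 cells) and 121 CPM in untagged ECs (64 cells), while their summed level was 73.1 CPM (56.2 to 93.5), 303 CPM (281 to 325) and 243 CPM (205 to 286). In the 407 liver ECs with Stab2, a receptor of sinusoids, Hoxa5 was at 34.0 CPM and the sum at 195 CPM (182 to 208). Liver ECs with Vwf thus held more of both than those with Stab2. Cells with Fabp4, a fatty acid binding protein of capillaries, were at 132 CPM in heart (1479 cells) and 244 CPM in liver (1157 cells). Of the 98 heart ECs with Npr3, a gene of the endocardium, 31.6% held a Hox UMI, at 153 CPM (134 to 174). In the few cells with Prox1, the master gene of lymphatic identity, the leading members were Hoxd9 and Hoxd8 in heart (23 cells) and Hoxd8, Hoxb3 and Hoxd9 in liver (14 cells), a choice made after their values were seen, while untagged ECs with Prox1 (13 cells) were led by Hoxb2, Hoxa7 and Hoxd9. Hoxd8 and Hoxd9 were not among the 3 leading members of the Stab2, Npr3, Fabp4 or Vwf subsets.

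Untagged ECs resembled liver more than heart in their Hox level. Their sum was 233 CPM (225 to 240), 1.74 times (1.66 to 1.84) that of tagged heart ECs and 0.960 times (0.912 to 1.01) that of tagged liver ECs. Free RNA was at a similar sum, 237 CPM (207 to 271). Hoxa5 was at 52.1 CPM, a ratio of 3.14 (2.74 to 3.59) to heart and 1.11 (0.989 to 1.24) to liver, followed by Hoxb4 (18.3 CPM), Hoxb2 (15.3 CPM), Hoxa7 (12.9 CPM) and Hoxb5 (11.5 CPM). Against heart, 8 of 31 members were past 2-fold higher (Hoxa3, Hoxa5, Hoxa9, Hoxa13, Hoxd9, Hoxd11, Hoxd12 and Hoxd13) and 0 past 2-fold lower, where all genes gave 9.04% and 2.3%. Against liver the only member past 2-fold higher was Hoxa13, a gene of digits and genitalia (1 of 32, with 4.19% of all genes), and 2 of 32 were past 2-fold lower, among them Hoxb7 (0.451, 0.321 to 0.630, with 4.64% of all genes). With a minimum on hashtag counts, a setting added after the data were seen, 11 of 31 members were past 2-fold higher in untagged than in liver ECs, against 12.2% of all genes. Against heart the same minimum gave 8 of 31 (13.3% of all genes), of which Hoxa5, Hoxd9, Hoxd11 and Hoxd13 are among those named above, and leaving out ECs with markers of another type gave 15 of 31 (13.4% of all genes). Which organs the untagged ECs came from is not known.

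By cluster, Hox UMIs of the 7 EC populations were mostly HoxA and HoxB. HoxA gave 35.6% to 48.2% of them, HoxB 27.2% to 42.1%, HoxC 8.93% to 17.8% and HoxD 6.42% to 14.2%. Paralogue groups 9 to 13 gave 16.1% in iSuRe-Cre liver and up to 26.9% in iSuRe-HadCre liver, and groups 1 to 3 between 17.2% and 24.2%. The ranges of the liver and heart groups overlap for all 4 clusters.

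The gated populations showed other codes. In Krt5-gated cells, whose summed keratinocyte markers were at 3226 CPM, HoxC gave 41.0% and HoxD only 2.10% of Hox UMIs. Hoxa7 led at 32.8 CPM, followed by Hoxc8 (28.7 CPM, 24.3 to 33.6), Hoxa5 (20.2 CPM), Hoxa9 (16.6 CPM) and Hoxc13 (15.8 CPM, 12.6 to 19.6). Hoxc13, a regulator of hair and nail keratins, was seen in 18.6% of these 210 cells, which held 84 of the 103 Hoxc13 UMIs of the 12 populations. Elsewhere it stood at 1.48 CPM at most, and tagged heart ECs had 0 Hoxc13 UMIs, which allows up to 0.167 CPM. Its ratio to tagged ECs was 90.6 (37.3 to 286) on 5 UMIs in the latter. The neighbour Hoxc12 was at 5.85 CPM, with a ratio of 23.9 (10.3 to 64.2) on 7 UMIs.

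Posterior HoxD and HoxA genes of the limb were at or near 0 UMIs in the Krt5-gated cells. Hoxd10, Hoxd11, Hoxd12 and Hoxa11 had 0 UMIs, which allows up to 0.566 CPM each, and Hoxd13 had 4. Hoxb5 (1.70 CPM, ratio 0.191, 0.0863 to 0.368) and Hoxb3 (3.96 CPM, ratio 0.382, 0.233 to 0.595) were low as well. In all, 11 of 34 members were past 2-fold higher than in tagged ECs, against 12.2% of all genes, and 10 (29.4%) past 2-fold lower, a share near the 26.4% of all genes. Of the 11, 8 were HoxC genes (Hoxc4, Hoxc5, Hoxc6, Hoxc8, Hoxc9, Hoxc11, Hoxc12 and Hoxc13).

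Col2a1-gated cells, with summed chondrocyte markers at 4434 CPM, had the most posterior code. Their UMI-weighted mean paralogue number was 7.86, against 5.42 to 6.33 in the 6 tagged EC groups, and groups 9 to 13 gave 45.3% of Hox UMIs. Hoxa7 led at 57.7 CPM, and Hoxa10 (45.5 CPM, 40.8 to 50.6), Hoxc8 (36.3 CPM), Hoxd11 (31.0 CPM) and Hoxa9 (27.3 CPM) followed. Hoxd11, which with Hoxa11 shapes the forearm, was 8.21 times (6.51 to 10.4) its level in tagged ECs, and Hoxa11 at 12.5 CPM was 10.2 times (6.85 to 15.5). Hoxd13, a gene of the digits, was at 17.5 CPM and 9.60 times (6.91 to 13.5). Past 2-fold were 19 of 33 members higher, against 16.2% of all genes, and 1 lower (Hoxb5, 0.332, 0.205 to 0.515), against 18.9%.

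Col3a1-gated cells (1210 cells, summed mesenchymal markers 4429 CPM) shared this posterior weight with a wider spread. Hoxa10 led at 35.0 CPM, with Hoxc8 at 28.1 CPM, Hoxa7 at 25.7 CPM, Hoxa9 at 24.5 CPM and Hoxa5 at 24.3 CPM. Their sum was 415 CPM (406 to 423), the mean paralogue number 7.06 and the share of groups 9 to 13 39.1%. Against tagged ECs 22 of 36 members were past 2-fold higher, where all genes gave 18.5%, and 1 past 2-fold lower, where all genes gave 16.3%. Hoxa5 was not higher here than in ECs (ratio 0.871, 0.780 to 0.972), whereas Hoxa10 was 4.48 times (3.86 to 5.23) and Hoxc10 5.17 times (4.26 to 6.31).

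Myh11-gated cells, with smooth muscle markers at 10690 CPM, stood apart by their anterior HoxB genes. HoxB gave 46.8% of Hox UMIs, and Hoxb4 (56.4 CPM, 41.5 to 75.1), Hoxb3 (48.0 CPM), Hoxb5 (45.6 CPM), Hoxb2 (42.0 CPM) and Hoxa4 (32.4 CPM) led. Hoxb4 was found in 51.2% of the 43 cells. Any Hox UMI was found in 97.7% (87.7 to 99.9) and, thinned, in 61.7%, the highest share of the 12 populations. Past 2-fold higher than tagged ECs were 21 of 32 members, against 13.3% of all genes, and past 2-fold lower 2 (Hoxb9 and Hoxd4), against 24.2%. Only 7 cells passed this gate alone, and in them 11 of 32 members were past 2-fold higher, against 14.1% of all genes, and 17 of 32 lower, against 46.4%, a setting added after the data were seen.

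The 17 Prph-gated cells, with peripheral neuron markers at 8373 CPM, were led by Hoxc8 (63.7 CPM, 43.8 to 89.4), a gene of brachial motor neurons. Hoxb7 (21.2 CPM) and Hoxc9 (19.3 CPM), a gene of the thoracic spinal cord, were the other members with at least 10 UMIs. HoxC gave 41.7% and HoxB 36.5% of Hox UMIs, and no UMI of Hoxd8 to Hoxd13 was seen, which allows up to 5.79 CPM each. Only 2 cells held Hoxc8, and the cell with the most Hox UMIs held 25.6% of the population's total, without which the sum goes from 301 to 238 CPM. Past 2-fold higher were 9 of 32 members, against 19.3% of all genes, and lower 11 (34.4%), a share near the 30.3% of all genes.

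**Figure D3:**
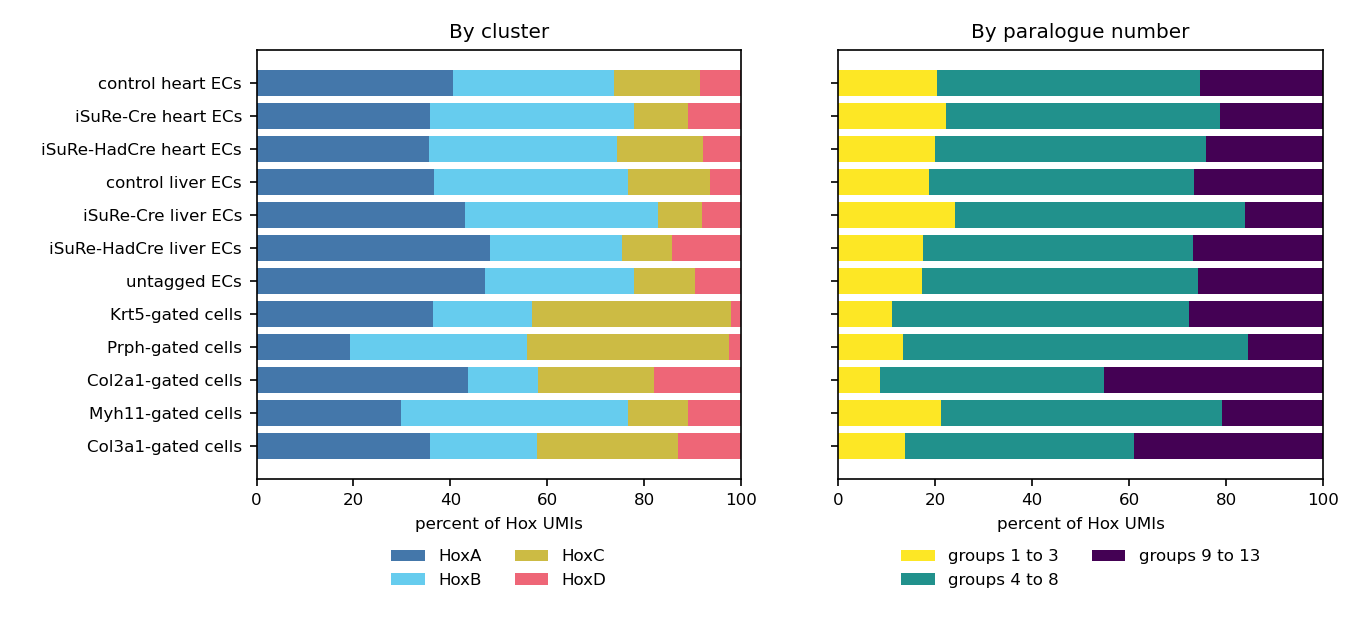
Percent of Hox UMIs by cluster (left) and by paralogue groups 1 to 3, 4 to 8 and 9 to 13 (right) in the 12 populations, each bar summing to 100. HoxC is widest in Krt5-gated (41.0%) and Prph-gated cells (41.7%), and groups 9 to 13 in Col2a1-gated (45.3%) and Col3a1-gated cells (39.1%).

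Within the gated comparisons the median log2 ratio of the members tested was 1.50 in Col2a1-, 1.61 in Myh11- and 1.76 in Col3a1-gated cells, with 0.07, -0.02 and 0.13 over all genes. It was 0.26 in Krt5- and 0.29 in Prph-gated cells, with -0.16 and -0.07 over all genes. Over the 12 populations, 20 members had a UMI in each. The rarest were Hoxb1, with 6 UMIs, and Hoxb13, with 5, each in 3 populations.

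Hox RNA was unevenly spread over cells. Among ECs with at least 10000 UMIs, 50.4% (46.3 to 54.6) of 583 heart cells and 14.9% (11.0 to 19.4) of 303 liver cells held no Hox UMI, although the heart cells were deeper (median 17189 against 13972 UMIs). The 10% of cells richest in Hox UMIs held 64.7% of all Hox UMIs in heart and 45.9% in liver ECs. At least 5 Hox UMIs were in 16.0% of the deep heart and 27.1% of the deep liver cells. The liver cells mostly held a few UMIs each, with a median of 3.

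The gated cells split more sharply. Among deep Col3a1-gated cells 26.8% held no Hox UMI and 54.6% held 5 or more, and among deep Col2a1-gated cells the shares were 31.8% and 51.1%. Both gates thus hold many cells with several Hox UMIs and many with none. Of the deep Myh11-gated cells 2.70% held none. In deep hepatocyte-gene cells 85.7% held none, at a median of 46103 UMIs.

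**Figure D4:**
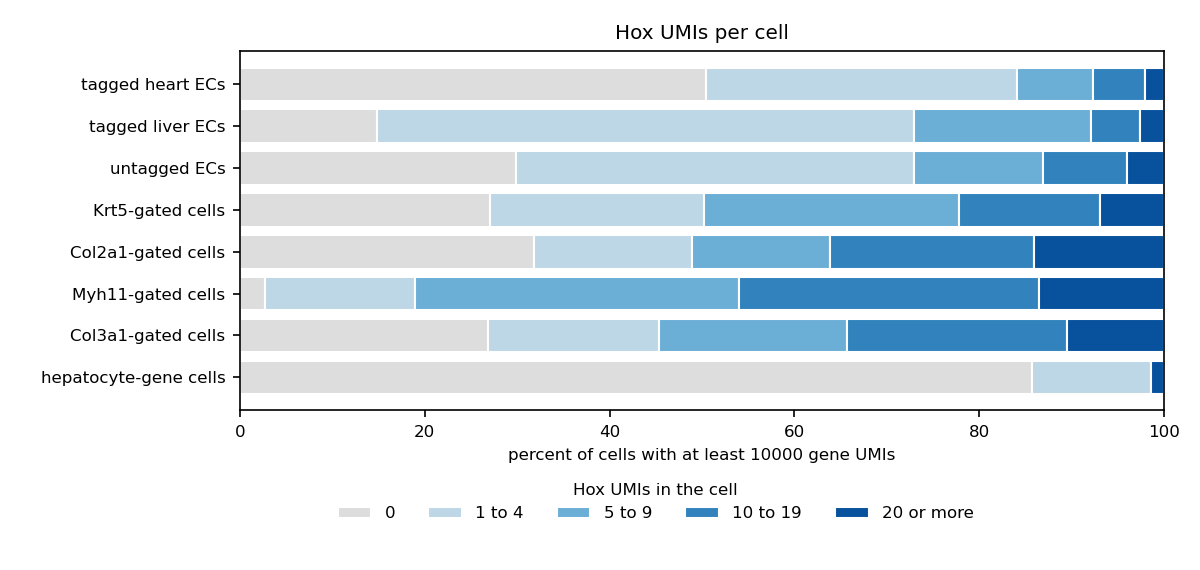
Percent of cells with at least 10000 gene UMIs that hold 0, 1 to 4, 5 to 9, 10 to 19 or 20 or more Hox UMIs, by population. The pale segment (0 UMIs) takes 50.4% of tagged heart ECs, 14.9% of tagged liver ECs and 85.7% of hepatocyte-gene cells.

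In cells with at least 5 Hox UMIs the code could be read cell by cell. The 614 such Col3a1-gated cells held a median of 6 members from 3 clusters. In 176 of them a UMI of the limb and tail genes Hoxd10 to Hoxd13 was present, and a HoxB UMI was found in 60 of these (34.1%), against 324 of the other 438 cells (74.0%), at median depths of 16808.5 and 19184.5 UMIs. HoxC showed the same order, with 52.3% and 74.9%. In the 180 Col2a1-gated cells the split was alike, with HoxB in 32.9% of the 70 cells with posterior HoxD UMIs and in 62.7% of the other 110, and HoxC in 37.1% and 81.8%. Tagged heart ECs (63.6% against 90.1%), tagged liver ECs (68.8% against 88.1%) and untagged ECs (54.5% against 79.4%) had the same order for HoxB on 22, 16 and 22 cells with posterior HoxD. For HoxC the order in ECs was the opposite of that in the gated cells, with 45.5% against 38.5% in heart, 31.2% against 20.2% in liver and 13 of 22 against 30 of 107 cells in untagged ECs. At a fixed small number of Hox UMIs a cell that holds more of a cluster has room for fewer of another, and its part in the difference was not tested.

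The most posterior member seen in a cell belonged to groups 9 to 13 in 79.4% of these Col2a1-gated, 66.7% of Krt5-gated and 64.2% of Col3a1-gated cells. In ECs it did so in 48.7% of heart, 34.4% of liver and 50.4% of untagged cells. These gated cells held a median of 6 members each, against 5 in heart, 4 in liver and 4 in untagged ECs. A cell with more members seen has more room for a posterior one, and the part of this was not tested. Among the 102 Krt5-gated cells 95 held a HoxC UMI and only 2 a UMI of Hoxd10 to Hoxd13.

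Other positional factors, which the choice of members did not use, differed with the Hox state of deep gated cells. These were set as cells with no Hox UMI, with Hox UMIs but none of the distal genes Hoxa11, Hoxa13, Hoxd11, Hoxd12 and Hoxd13, and with a distal UMI. In Col3a1-gated cells (284, 565 and 211 cells, median depths of 16522.5, 18406 and 17082 UMIs) Tbx5, the factor of the forelimb and heart, was at 4.06, 24.4 and 36.3 CPM in this order. Tbx4, a factor of the hindlimb and lung, was at 1.85, 12.6 and 26.1 CPM, and Lmx1b, which marks the dorsal limb, at 5.36, 3.54 and 31.9 CPM. The first 2 were thus low where Hox UMIs were absent, and Lmx1b was high where distal UMIs were present. Not all listed factors followed these orders. Prrx1 (510, 306 and 382 CPM) and Twist1 (316, 196 and 247 CPM) were highest with no Hox UMI. En1 (11.6, 18.9 and 6.28 CPM) was lowest with distal UMIs.

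The reverse of the order of Tbx5 and Tbx4 was seen for factors of heart, face and stomach. Tbx20, a cardiac factor, was at 57.8 CPM (51.6 to 64.6) in Col3a1-gated cells with no Hox UMI and at 3.03 and 1.40 CPM in the other two states. Barx1, a factor of facial and stomach mesenchyme, was at 148, 37.5 and 6.28 CPM and Gata4 at 15.9, 8.76 and 0.699 CPM. Among the cells with no Hox UMI, Tbx20 and Gata4 were each found in only 7.04% and Barx1 in 33.1%. Pitx1, of the hindlimb and the jaw, was high at both ends (58.9, 35.0 and 103 CPM), as was Hand2, of the posterior limb, the heart and the jaw (51.9, 29.2 and 53.5 CPM).

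Col2a1-gated cells (102, 132 and 87 cells) repeated part of this order, in Tbx5, Tbx4, Lmx1b and Barx1. Tbx5 was at 1.33, 11.5 and 54.1 CPM, Tbx4 at 0.444, 7.78 and 25.7 CPM and Lmx1b at 9.76, 1.01 and 18.2 CPM. Hand2 (1.77, 4.40 and 46.0 CPM) and Pitx1 (18.2, 25.7 and 99.6 CPM) rose over the states and were not high at both ends here. Tbx20 and Gata4 did not repeat their order, with at most 4.06 CPM in any state. Otx2, a factor of the head, was at 25.3 CPM (19.2 to 32.8) with no Hox UMI, 1.69 CPM with Hox UMIs and 0 UMIs with distal ones, which allows up to 1.61 CPM. The 57 Otx2 UMIs of the cells with no Hox UMI came from only 5.88% of them. Barx1 was at 51.0, 19.3 and 10.2 CPM. Prrx1 was again highest with no Hox UMI, at 387, 244 and 338 CPM, while Twist1 stood at 110, 110 and 111 CPM. The states share a library and a gate, and cells without a Hox UMI may include cells whose Hox RNA was missed.

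**Figure D5:**
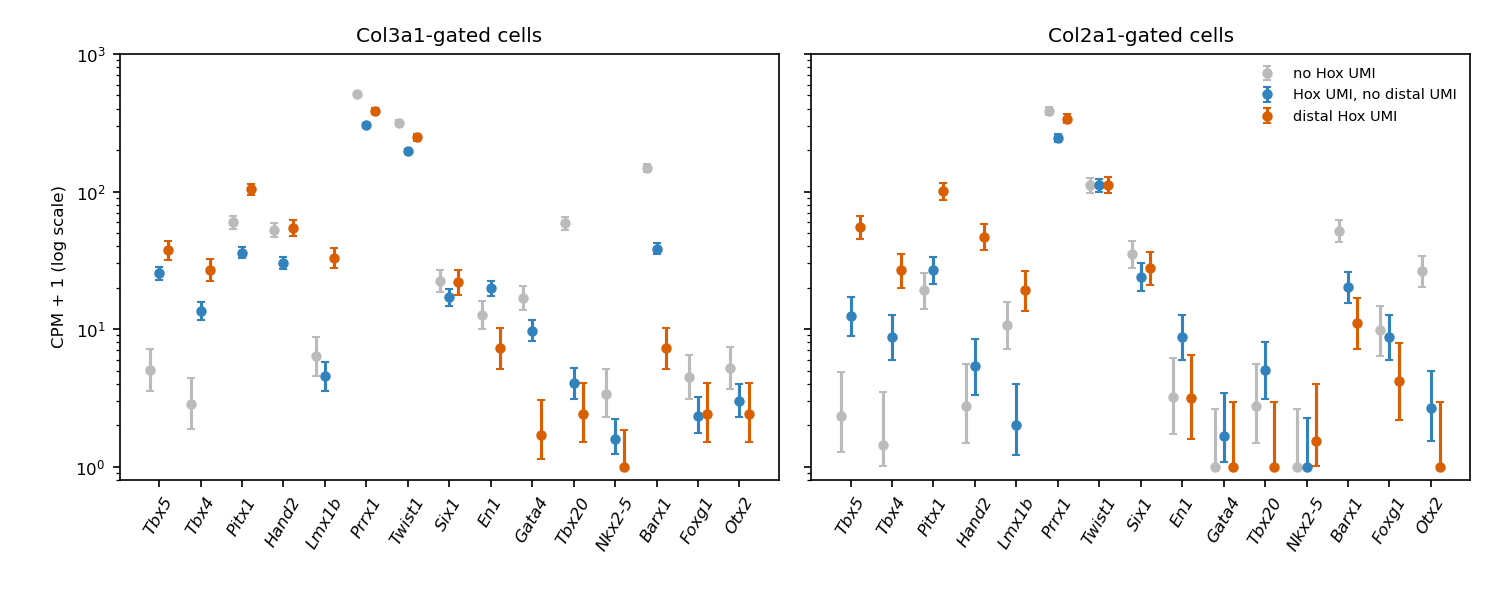
CPM + 1 (log axis) of 15 other positional transcription factors in Col3a1-gated (left) and Col2a1-gated cells (right) with at least 10000 UMIs, by Hox state, with exact 95% Poisson intervals. Tbx5 and Tbx4 stand lowest in cells with no Hox UMI, and Tbx20 (left) and Otx2 (right) stand highest there.

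Of the cofactors, Meis2 was also higher in liver than in heart ECs. It was at 239, 158 and 205 CPM in control, iSuRe-Cre and iSuRe-HadCre heart ECs and at 548, 783 and 505 CPM in liver, without overlap, and at 942 CPM in Myh11-gated cells. In hepatocyte-gene cells Meis2 was at 49.4 CPM. Within deep Col3a1-gated cells Meis1 was at 93.1 CPM with no Hox UMI, 230 CPM with Hox UMIs and 164 CPM with distal ones. In deep Col2a1-gated cells it was at 76.7, 129 and 49.8 CPM in the same order, lowest with distal UMIs. Of the Cdx genes, which switch on Hox genes in the embryo, 0 UMIs of Cdx1 and Cdx4 were found in the 12 populations, which in the tagged ECs together allows up to 0.105 CPM each.

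By the paper, heart and liver ECs with either iSuRe allele had efficient deletion of Notch1, although the labels name no floxed gene. In a comparison of the iSuRe groups with control, an effect of the allele and one of the deletion cannot be told apart. For the Hox sum 3 of 4 directions turned under some alternative. In heart the summed ratio was 0.783 (0.710 to 0.864) for iSuRe-Cre and 1.32 (1.20 to 1.46) for iSuRe-HadCre. In liver it was 0.706 (0.635 to 0.786) and 0.764 (0.665 to 0.878). Hoxa5, the leading gene, gave 0.718 (0.540 to 0.955) and 1.27 (0.952 to 1.70) in heart and 0.924 (0.711 to 1.22) and 0.933 (0.663 to 1.32) in liver. The 4 ratios share 2 control groups. With only cells of strong hashtag counts iSuRe-Cre heart turned to 1.12, and at a mitochondrial limit of 10% to 1.08. iSuRe-HadCre liver turned to 1.31 at a lower hashtag quantile and 1.19 at the mitochondrial limit of 10%, and iSuRe-HadCre heart to 0.968 as a mean over cells.

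Single cells weighed on these values. In control liver 1 of 230 cells held 93 of 436 Hox UMIs (21.3%), from 24 members led by Hoxb9, Hoxb8, Hoxc9 and Hoxa9, and without it the level was 263 CPM. In iSuRe-HadCre heart 1 cell held 72 of 769 Hox UMIs (9.36%), led by Hoxb9 and Hoxb8, and without it the level was 164 CPM. Hoxb9, a thoracic gene, led in both cells. Its ratio to control was 6.03 (2.75 to 15.0) for iSuRe-HadCre in heart and 0.111 (0.0540 to 0.220) for iSuRe-Cre in liver. For iSuRe-HadCre in liver it was 0.0352 (0.000857 to 0.216), and the control liver had 24 Hoxb9 UMIs. Without the richest cell of each population Hoxb9 was no longer called past 2-fold in iSuRe-HadCre heart or liver. It was still past 2-fold lower in iSuRe-Cre liver. For the Hox sum in liver, the same setting gave 0.847 for iSuRe-Cre over control and 0.910 for iSuRe-HadCre over control. The richest cell of iSuRe-HadCre liver (18 Hox UMIs, led by Hoxa10 and Hoxd11) also held 26 Col3a1 UMIs. That of iSuRe-Cre liver (44 Hox UMIs, led by Hoxa7 and Hoxc8) held 26 as well. In the other tagged groups the richest cell held 0 to 4 Col3a1 UMIs.

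Cells with strong and weak hashtag counts also differed. In control heart the sum was 93.8 CPM in 217 cells with strong and 172 CPM in 443 cells with weak counts, beside mesenchymal marker sums (6 of 6 detected) of 419 and 738 CPM. In control liver it was 463 CPM in 40 cells and 245 CPM in 190 cells, with marker sums of 973 and 1285 CPM. The mesenchymal sums were higher under weak counts in all 6 groups, and their part in the Hox ratios was not tested.

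By member, 0 of 24 were past 2-fold higher in iSuRe-Cre than in control heart (3.57% of all genes) and 3 lower (Hoxc8, Hoxc9 and Hoxc10, with 5.67% of all genes). In iSuRe-HadCre heart 8 of 24 were past 2-fold higher, among them Hoxb6, Hoxb7, Hoxb8 and Hoxb9 (3.57% of all genes), and 0 lower (2.27%). In iSuRe-Cre liver 2 of 25 were past 2-fold higher (among them Hoxa3, with 6.82% of all genes) and 10 lower (8.58%). In iSuRe-HadCre liver 0 of 16 were past 2-fold higher (1.95%) and 3 lower (Hoxb5, Hoxb8 and Hoxb9, with 3.54%). Without the richest cell of each population the 10 lower members of iSuRe-Cre liver became 3 of 24, against 7.86% of all genes. These were Hoxa7, Hoxb9 and Hoxc8. The 3 lower members of iSuRe-HadCre liver became 1 of 13 (Hoxb5), against 3.13%. This setting was added after the data were seen. The 8 higher members of iSuRe-HadCre heart became 6 of 23 (3.54% of all genes), without Hoxb8 and Hoxb9. Leaving out ECs with markers of another type gave 3 of 15 there (Hoxb3, Hoxb8 and Hoxb9, with 3.34% of all genes), and the hashtag minimum gave 9 of 15 (5.84%), with Hoxb8 and Hoxb9 and without Hoxb6 and Hoxb7. The median log2 ratios of the members tested were -0.14 and 0.39 in heart and -0.62 and -0.30 in liver, with -0.11, 0.08, -0.05 and -0.01 over all genes.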

How the data were processed

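The deposited values are raw UMI counts of every barcode, which the authors made with Cell Ranger 7.1.0 on a GRCm38 reference (Ensembl build 98) that also held the transgenes; the 10x kit is not given in the sources used here. From these counts, barcodes with more than 2000 and fewer than 75000 gene UMIs, more than 500 genes and mitochondrial and haemoglobin shares under 5% each were kept (14348, of which 14299 had more than 4 hashtag UMIs). HTODemux (Seurat 5.3.0, R 4.3.3, quantile 0.99) gave 4859 singlets and 2640 doublets, which were left out; 6849 barcodes were untagged. A further 7 hashtag and multiplexing features were not used. The only other treatment of doublets was an alternative that left out ECs with markers of another type. Levels are UMIs per 1000000 UMIs of a population (CPM), with exact intervals (scipy 1.17.1, Python 3.11.15); with 1 sample per group no differential test was run. A gene was called past a 2-fold ratio among genes with at least 20 UMIs in both populations together. The text names the 5 highest members with at least 10 UMIs in each population, and members past 2-fold. Strong hashtag counts are at least 25 UMIs and 5 times the median. Hepatocyte-gene cells have at least 3% of UMIs from 6 hepatocyte genes and low Cdh5. Barcodes past several gates went to the first of Krt5, Prph, Col2a1, Myh11 and Col3a1. Coordinates and promoters come from RefSeq, and exon overlaps from GENCODE, on the same build. The code was tested on simulated data. The members and lists were chosen with earlier results of these data known. The values of some genes are not reported here.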

Additional observations from a re-analysis of the deposited data

Results flagged for a closer look

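The summed Hox level stood on opposite sides of 1 for iSuRe-HadCre over control in the 2 organs, with a ratio of 1.32 in heart ECs and 0.764 in liver ECs. The difference between the organs was not tested, and each direction turned under at least 1 alternative.

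Barcodes outside the comparisons also held Hox RNA. ECs called hashtag doublets (1786 barcodes, 3014 Hox UMIs) were at 189.7 CPM, between tagged heart and tagged liver ECs. Barcodes left out for haemoglobin transcripts of 5% or more (8867 barcodes, 8743 Hox UMIs) were at 151.5 CPM, with a UMI of all 39 members and a mean paralogue number of 6.98.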

How the results depend on the processing

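Of the alternatives to the 7 summed ratios, 35 differed from the main value by less than its interval, 29 moved further and 5 turned the direction. Untagged over heart ECs (1.74) was 1.89 at Cdh5 above 1.5, 1.60 with WPRE required in the iSuRe groups, 1.53 at a hashtag quantile of 0.95, 1.89 with a hashtag minimum, 2.06 without ECs holding markers of another type, 1.64 as a mean over cells and 1.90 with free RNA subtracted. Untagged over liver ECs was 0.893 at the quantile of 0.95. Liver over heart ECs (added after the data were seen) was 1.67 with WPRE, 1.93 at a mitochondrial limit of 10%, 2.07 without other markers, 1.69 as a mean over cells and 2.03 with free RNA subtracted. iSuRe-Cre over control heart was 1.12 with the hashtag minimum and 1.08 at the mitochondrial limit, both reversed, and 0.959 at 4000 UMIs. iSuRe-HadCre over control heart was 1.52 at the quantile of 0.95 and with free RNA subtracted, 2.15 with the hashtag minimum, 1.79 at the mitochondrial limit, 1.78 at 4000 UMIs and, reversed, 0.968 as a mean over cells. iSuRe-Cre over control liver was 0.836 at the higher Cdh5 limit, 0.952 at the quantile of 0.95, 0.455 with the hashtag minimum, 0.979 at the mitochondrial limit, 0.823 at 4000 UMIs, 0.791 without other markers, 0.820 as a mean over cells and 0.847 without the richest cell. iSuRe-HadCre over control liver was 1.31 at the quantile of 0.95 and 1.19 at the mitochondrial limit, both reversed, 0.573 with the hashtag minimum and 0.910 without the richest cell; with free RNA subtracted it could not be computed, since the estimated share of free RNA in that group was 146.9%. The causes were not tested. Gate settings kept 23 of 30 summed levels within their intervals. Mean paralogue numbers have no interval, and 27 of 30 stayed within a fixed tolerance of the main value. The single gate moved Prph-gated cells to 175 CPM and Myh11-gated cells to 377 CPM. It could not change Col3a1-gated cells, since that gate is last in the order. Thinning can only lower the share of cells with a Hox UMI, and all 17 shares were lower when thinned. With 1 sample per group no replicate could be left out. No paired analysis was possible because each group is 1 sample. Members with few UMIs are limited by depth.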
